A study of Drosophila melanogaster with 2 samples.

Results

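The 244 peaks of disco chromatin immunoprecipitation (ChIP-seq) that lie on the X chromosome of Drosophila melanogaster embryos are described here. They are every peak that the deposited list places on X, out of 1723 peaks in all and 1716 on the 5 large chromosome arms. The 1 peak of the separate heterochromatic sequence XHet, at XHet:84812-86141 with a score of 76.39 and a width of 1330 bp, was left out. The comparison arms are 2L with 294 peaks, 2R with 378, 3L with 380 and 3R with 420. The series has 2 samples from embryos collected 0 to 8 h after egg laying, an antibody ChIP against disco and the input chromatin. The flies were untreated. The labels' protocol names the iso1 strain (y; bw cn sp) or transgenic flies without saying which gave these embryos. Tissues and both sexes would be mixed in such a collection, and the sex ratio is not given in the sources used here. The ChIP sample is 1 peak list for ChIP replicates 1 and 2 together, so no spread between replicates exists for any value below, and no difference was tested.

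The gene disco (disconnected, Dmel_CG9908) encodes a C2H2 zinc finger transcription factor. It is named for mutants in which the larval visual nerve fails to connect with the brain. With its relative disco-r (disco-related, Dmel_CG32577) it is also needed to shape the gnathal segments of the head, where it acts alongside the Hox genes. Both genes are themselves X-linked. Female flies carry a pair of X chromosomes and males a single one, and male cells raise transcription from their X through the MSL dosage compensation complex. In pooled embryos, fewer copies of a chromosome and weaker binding per copy cannot be told apart from a peak list.

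Each peak has a position, a width and 1 score. Positions are on Release 5 (BDGP5) and counted from 1. The score is the authors' own value from the peak caller. Its scale is not named, so it ranks peaks and does not measure how much protein was bound. The read depth is unknown. Intervals on shares are 95% Wilson intervals, and intervals on medians are 95% intervals from the exact binomial order statistics. Both cover counting error only and treat peaks as independent, which neighbouring peaks are not. No gene, exon, intron or UTR is named for any peak, since no annotation of Release 5 was used here.

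On the X, disco peaks had a median score close to that of the autosomal arms, and fewer of them were broad. The median X peak scored 68.1 (64.1 to 70.3) and was 1320.5 bp wide (1266 to 1432). On the 4 autosomal arms together the median score was 68.7 (67.6 to 70.6) and the median width was 1560 bp (1523 to 1616). The intervals of the scores overlap and those of the widths do not. X peaks made up 14.2% of the peaks on the large arms (12.6 to 16.0%) and 12.2% of the bases covered by peaks there.

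**Figure D1:**
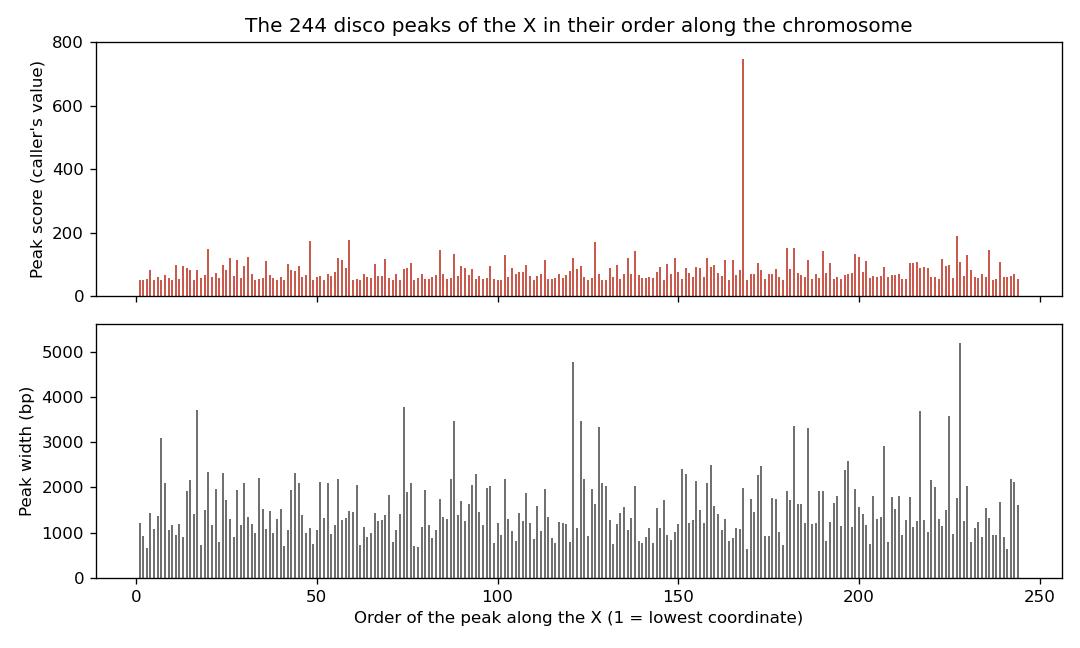
Score (upper panel) and width in bp (lower panel) of each of the 244 X peaks, placed in their order along the chromosome and not at their distances. One peak stands at a score of 748.23, while the next highest is at 188.09 and the widest peak is 5195 bp.

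The scores of the X peaks were spread like those of the autosomal arms up to the upper tail. The lower and upper quartiles were 57.0 and 91.8 on the X, and 57.9 and 91.3 on the autosomal arms. Scores under 60, just above the lowest value in the list, were given to 79 X peaks (32.4%, 26.8 to 38.5%) and to 30.6% of the autosomal ones. A score above 100 was reached by 44 X peaks (18.0%, 13.7 to 23.3%), beside 18.9% of all peaks on the large arms. A score above 150 was reached by 7 X peaks (2.87%, 1.40 to 5.80%), beside 3.96% of all. Both shares on the X were near that background. Down the ranked list of the large arms, X peaks were 12 of the first 100, 25 of the first 200 and 58 of the first 400, or 12%, 12.5% and 14.5%.

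The top of the X ranking is 1 peak far above the others. The peak at X:16110278-16112258 scored 748.23, which is also the highest score of the whole list. The next on the X scored 188.09 and is only at rank 22 of the whole list. The step between first and second was therefore 560.14 on the X. On 2L it was 205.1, from 508.17 to 303.07, and on the remaining autosomal arms it was between 5.93 and 16.06. Only this 1 peak on the X exceeded 200, while 2L, 2R and 3L had 3 each and 3R had 7. With a width of 1981 bp the first peak of the X was narrower than the first of every autosomal arm, at 2580 bp (3L), 2600 bp (2R), 6718 bp (2L) and 8688 bp (3R).

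None of its neighbours came near its score. Within 200 kb on either side lay 6 other peaks, 5 of them towards lower coordinates. The nearest, at X:16097042-16098134, was 13.7 kb away and scored 81.45. The 4 peaks of the chain at X:16041418-16049734 lay 62.1 to 69.2 kb away. In order along the chromosome they scored 114.32, 50.87, 112.74 and 67, so the first and the third were the higher ones. Towards higher coordinates there was no peak for 90.1 kb. The peak found there, X:16201031-16201671, was at 641 bp the narrowest of the whole X and scored 50.24, near the bottom of the list. The stretch around the leading peak thus held the highest score and one of the lowest.

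**Figure D2:**
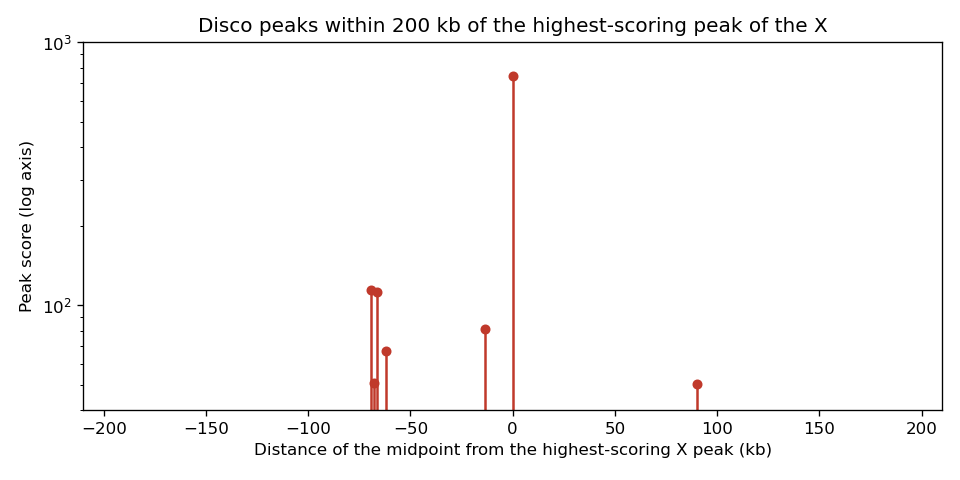
Scores (log axis) of the disco peaks whose midpoints lie within 200 kb of the highest-scoring X peak, against the distance in kb from it, with lower coordinates to the left. Apart from the central peak at 748.23 no score exceeds 114.32, and only 1 peak lies to the right, at 90.1 kb.

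The peaks ranked 2 to 5 on the X stood alone as well. The second, X:19654747-19656510, scored 188.09 and was 1764 bp wide. The third, X:5504783-5506262, scored 177.47 at 1480 bp. The fourth, X:4318716-4319809, scored 172.5 at only 1094 bp, which is below the median width of the X. The fifth, X:11445785-11447416, scored 170.63 at 1632 bp. Their nearest neighbours lay 18.2, 11.5, 15.1 and 15.2 kb away, so none had another midpoint within 10 kb.

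Ranks 6 to 10 had scores between 144.63 and 152.87. They were X:17208104-17210029, X:17555010-17558355, X:1832948-1835286, X:7935774-7937514 and X:20292712-20294033, in that order. The one at X:17555010-17558355 was the broadest of the top 10 with 3346 bp. It and the one at X:7935774-7937514 had close partners, with gaps of 245 and 45 bp. The remaining 8 of the 10 had no neighbour within 10 kb, as did 60.2% of all X peaks. At the other end of the ranking, the peaks at X:393753-394678 and X:2479864-2480860 both scored 50.14, followed by X:17043802-17044536 with 50.16.

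The widths of the X peaks departed from those of the autosomal arms at the broad end and lay close to them at the narrow end. The narrowest 10% of X peaks ended at 829 bp, beside 832 to 906 bp on the single autosomal arms. The lower quartile was 1062 bp, beside 1071 to 1158 bp. The upper quartile was 1924 bp, beside 2213 to 2253 bp, and the broadest 10% began at 2204 bp, beside 3020 to 3335 bp. The gap between the X and the other arms thus widened from the narrow to the broad peaks. The median width of the X was below that of each autosomal arm, which ranged from 1515.5 bp on 3L to 1666 bp on 2R. Its interval ended at 1432 bp, above the lower bound on 3L (1425 bp), so these neighbours in the order overlap, while the intervals of 2L, 3R and 2R lie above it.

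**Figure D3:**
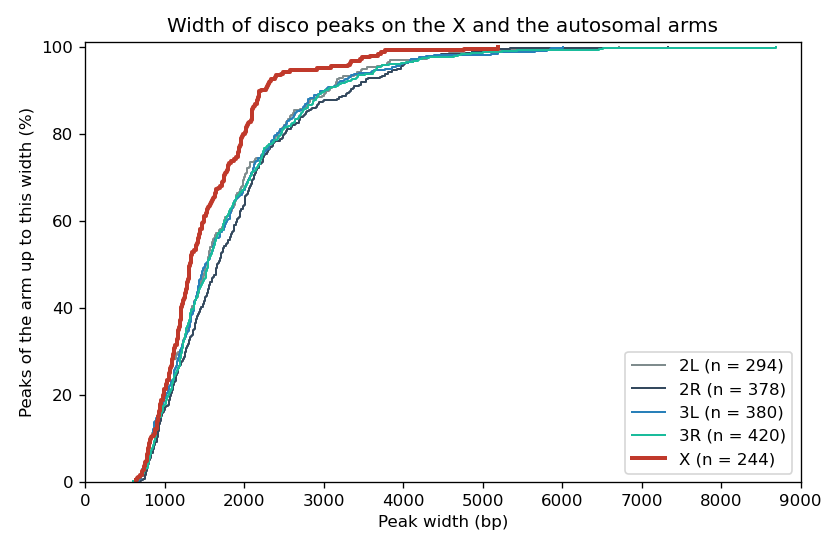
Cumulative share of the peaks of each arm (%) against peak width in bp. The X (red) runs close to the autosomal arms for narrow peaks and rises ahead of them for broad ones, with an upper quartile of 1924 bp beside 2213 bp or more on the other arms.

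Broad peaks were counted in 2 ways. Of the X peaks, 12 were wider than 3000 bp (4.92%, 2.84 to 8.40%), beside 10.2% of all peaks on the large arms and 11.1% of the autosomal ones (9.57 to 12.8%). The share was below that of each single arm, where it ranged from 10.3% on 3L to 12.4% on 2R, but the intervals of the single arms other than 2R overlap that of the X. When the 1716 peaks were divided into 4 equal ranges of width, the broadest range (2165 to 8688 bp) held 31 X peaks. This was 12.7% of the X (9.10 to 17.5%), beside 25.5% of 2L (20.9 to 30.8%), 26.3% of 3L, 27.9% of 3R and 28.0% of 2R. Each of those intervals lies above that of the X. Among the 400 broadest peaks of the large arms 24 were on the X (6.0%, 4.06 to 8.77%), under its share of all peaks. The difference was not tested, and the 3000 bp limit was chosen with the widths known.

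The broadest X peaks were not its highest. The widest, X:19671194-19676388, measured 5195 bp, scored 107.15 and is at rank 15 by width in the whole list. It lay 18.2 kb from the second highest-scoring peak of the X. The next, X:10750009-10754773, measured 4765 bp and scored 121.8. Those at X:6712443-6716213, X:1371353-1375070 and X:19414726-19418411 measured 3771, 3718 and 3686 bp and scored 85.69, 83.46 and 88.3. None of these 5 was among the first 10 by score. The narrowest after the one already given were X:20946335-20946984 with 650 bp and a score of 59.86, and X:403074-403743 with 670 bp and a score of 54.85.

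Since wider peaks have higher scores in this list, widths were also compared among peaks of like score. In the lowest of 4 equal score ranges (50.09 to 57.78) the median width was 1164 bp on the X (950 to 1290, 65 peaks) and 1318 bp on the autosomal arms (1194 to 1392, 364 peaks). In the next range (57.79 to 68.69) it was 1268.5 and 1354 bp, and in the third (68.71 to 91.31) 1432 and 1576.5 bp. In the highest range (from 91.42) it was 1718.5 bp on the X (1393 to 1960, 62 peaks) and 2102 bp on the autosomal arms (2007 to 2207, 367 peaks). The X median was the lower one in all 4 ranges, and only in the highest were the intervals apart. Against single arms the X median was below each in every range, and in the highest range its interval overlapped those of 2L, 3L and 3R. Spearman's rho between width and score was 0.38 on the X (244 peaks) and 0.36 to 0.40 on the autosomal arms, a description across peaks of 1 list in which both values come from the same calls.

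**Figure D4:**
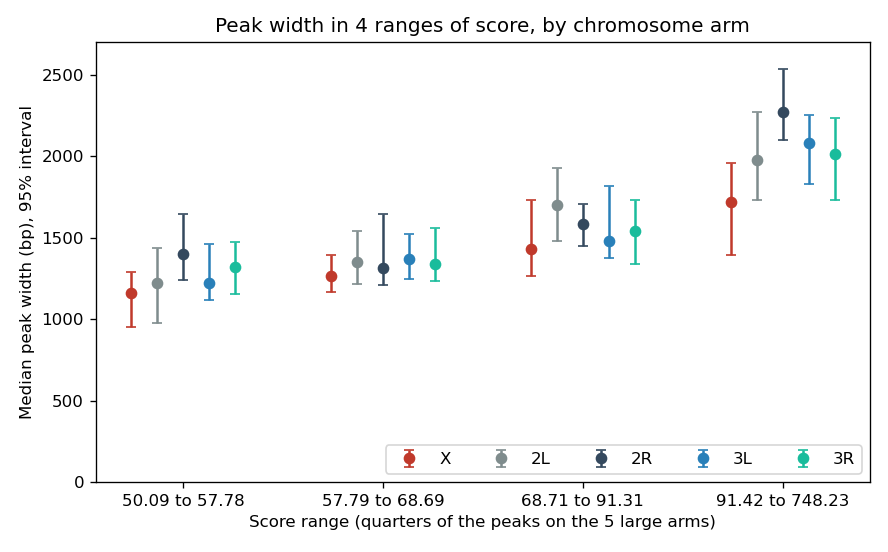
Median peak width in bp for each arm in 4 equal ranges of score, with 95% order-statistic intervals as bars. The X (red) has the lowest median in each range, at 1164, 1268.5, 1432 and 1718.5 bp from the lowest to the highest scores.

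Stricter limits inside the highest of these score ranges, which reuse the same peaks, also gave a lower median width on the X. The 44 X peaks scoring above 100 had a median width of 1704.5 bp (1338 to 1956), and the 280 autosomal ones had 2176.5 bp (2082 to 2308). Wider than 3000 bp were 5 of the 44 (11.4%) and 73 of the 280 (26.1%). No intervals were computed for these shares, and the one on the X rests on only 5 peaks. For X ranks 2 to 10 the median width was 1741 bp, and for the 50 autosomal peaks inside the same range of scores it was 2294.5 bp. With 9 peaks on the X, the interval of that median (1322 to 2339 bp) spans the autosomal value.

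Peaks were spread unevenly along the X. In the 20 whole windows of 1 Mb between the first and last peak there was a median of 11.5 peaks (8 to 14). The quartiles were 7.75 and 14 and the extremes 2 and 24. The median was 12 for 2L, 15.5 for 3R, 16 for 3L and 19.5 for 2R, and the range on 2L, from 1 to 26, contained that of the X. The densest X windows were 19 to 20 Mb with 24 peaks, 18 to 19 Mb with 19 and 2 to 3 Mb with 17. The sparsest were 12 to 13 Mb with 2 peaks, 14 to 15 Mb with 5 and 13 to 14 Mb with 6, which are neighbours.

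**Figure D5:**
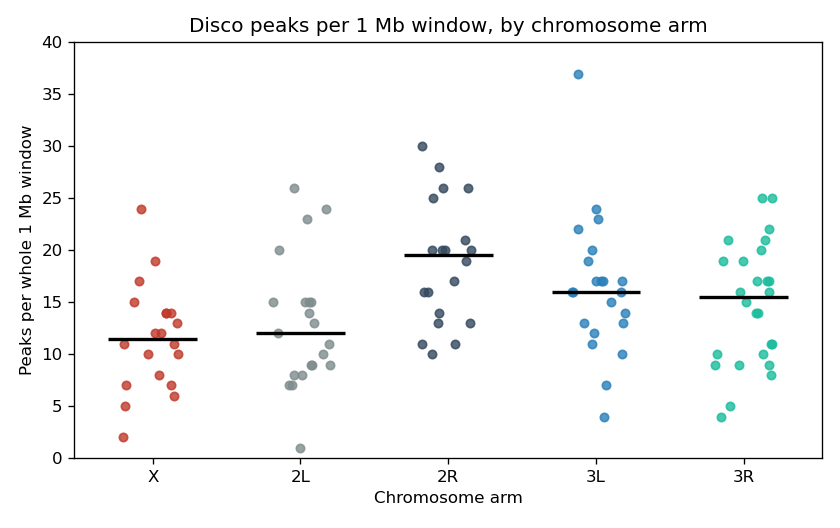
Number of disco peaks in each whole 1 Mb window of the 5 large arms. Each point is 1 window, shifted sideways for legibility, and the bar is the median, which is 11.5 on the X, 12 on 2L and 15.5 to 19.5 on the other arms.

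The sparse windows lie mostly within 1 stretch with few peaks. Between X:11916597 and X:14723072 lie 2.81 Mb, 13.3% of the span of the X peaks, which held 9 of them (3.69%). Its limits were set with the distances known, at the start of the 667 kb distance and the end of the 626 kb distance given below. That it holds both and has few peaks therefore follows in part from how it was drawn. Peaks of the window from 14 to 15 Mb that start at X:14723073 or later fall outside it. The stretch contains 5 of the 10 longest distances without a peak on the X, among them the 3 that follow the longest. The longest of all was X:2627919-3380409 with 752 kb. The next were X:11916597-12583107 with 667 kb, X:14096898-14723072 with 626 kb, X:13053723-13546817 with 493 kb and X:4961479-5454001 with 493 kb. A pair of its 9 peaks scored above 100. One, X:13051696-13053722, scored 143.35, ranking just below the first 10 of the X, with its nearest neighbour 451 kb away. The peak at X:12583108-12584161 scored 118.77. The remaining 7 scored between 55.73 and 76.94.

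Long empty stretches were a larger part of the X than of the autosomal arms. Distances of over 250 kb without a peak numbered 22 on the X and together took up 8.86 Mb, or 42.0% of the span from its first to its last peak. On 2L there were 21, with 36.1% of the span. The shares were 26.6% on 3R, 22.6% on 3L and 16.3% on 2R. A region without a peak cannot be told from one with too few aligned reads to be called, and arms with fewer peaks have longer distances by construction.

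The region from 15 to 20 Mb stood at the other extreme. Its limits were chosen with the counts known. It held 83 of the 244 X peaks (34.0%) and 9 of the 15 chains of 3 or more peaks. The 4 other divisions of the chromosome, taken as 0 to 5, 5 to 10, 10 to 15 and above 20 Mb, held 57, 54, 37 and 13 peaks. The division above 20 Mb is much shorter than the others, since the last X peak ends at X:21242037. Its count is therefore not comparable with theirs, and 10 of its peaks lay in the window from 20 to 21 Mb. A score above 100 was given to 21 of the 83 (25.3%, 17.2 to 35.6%) and to 23 of the 161 elsewhere (14.3%, 9.71 to 20.5%). Their median scores were 73.04 and 63.94, and their median widths 1469 and 1305 bp. Another midpoint within 10 kb was found for 48.2% (37.8 to 58.8%) and 35.4% (28.4 to 43.1%). The intervals of both shares overlap. Over all peaks on the large arms the shares were 18.9% above a score of 100 and 41.6% with a neighbour. Each lies inside the intervals of both parts of the X. Even in the densest division the median width, with an interval of 1278 to 1717 bp, was below the autosomal median of 1560 bp, although its interval contains that value.

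In the window from 19 to 20 Mb, 15 of the 24 peaks had a neighbour within 10 kb and 7 scored above 100. Some of the chains of peaks there, in which each midpoint lies within 10 kb of the next, followed each other closely. The chain X:19137498-19150605 scored 67.41, 71.02 and 54.5, and the chain X:19160710-19173966, the next one along the chromosome, scored 55.5, 103.67 and 103.12. At X:19410077-19423669, after 236110 bp without a peak, another chain scored 106.59, 88.3 and 92.97. It was the only chain of 3 or more on the X in which no score was below 80. The window also contains the second highest-scoring and the widest peak of the X.

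Over the whole X, 97 peaks had another midpoint within 10 kb (39.8%, 33.8 to 46.0%), beside 41.6% of all peaks on the large arms. This share was near the background. From one X midpoint to the next the median distance was 35.9 kb (22.6 to 49.0), with quartiles of 10.3 and 111 kb. On the single autosomal arms the median was 27.9 to 31.9 kb, inside that interval. The lower quartile of the X lay inside the autosomal range of 9.02 to 12.6 kb. The upper one was above that of every other arm, the nearest being 88.0 kb on 2L. This did not extend to the single longest distance without a peak, which was 752 kb on the X, 754 kb on 2L and 1042 kb on 3R.

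The 97 peaks formed 25 pairs, 13 chains of 3 and 2 chains of 4. Chains of 3 contained 39 X peaks (16.0%, 11.9 to 21.1%), and 6.12 to 11.9% of the peaks of the single autosomal arms. The intervals on 2R (9.02 to 15.6%), 3R (7.48 to 13.2%) and 3L (6.25 to 11.9%) overlap that of the X, on 3L only just. The interval on 2L (3.91 to 9.47%) lies below it. For the other chain sizes the X did not have the largest share. Pairs contained 20.5% of the X peaks, beside 21.8 to 29.5% on the single autosomal arms. Chains of 4 or more contained 3.28% of the X peaks (1.67 to 6.34%), beside 2.86% on 3R to 9.21% on 3L. Shares by chain size over all large arms were not computed. The chains of 4 were the one near the leading peak and X:11243922-11262359, with scores of 93.58, 59.02, 51.11 and 56.65. Among the chains of 3 the highest single scores were 142.2 at X:18153498-18161574, 132.83 at X:8037993-8051386 and 119.47 at X:15613292-15623408. In the last, the highest score was in the middle.

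Single X peaks and those in chains had overlapping intervals of width. The 147 single peaks had a median width of 1322 bp (1222 to 1469) and a median score of 69.03, and the 97 in chains had 1313 bp (1227 to 1471) and 67.68. A score above 100 was given to 18.4% of the single and 17.5% of the chained X peaks. On the autosomal arms the chained peaks were the wider ones, with 1677 bp (1576 to 1773, 617 peaks) beside 1511 bp (1432 to 1559, 855 peaks). For single peaks the intervals of the X and the autosomal arms overlap, and for chained peaks they do not. The difference between these differences was not tested.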

How the data were processed

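The authors aligned the reads with Bowtie to BDGP5, per the submitters' processing notes. The peak calls come from MACS, per the file headers. Not given in the sources used here are versions, the threshold, the use of the input and how the 2 replicates were combined. The authors deposited 1 score per peak, on an unnamed scale. Deposited starts count from 0, and 1 was added. The input was not analysed here.

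Peaks with X in the first column were taken. Widths, midpoint distances, chains (10 kb), whole 1 Mb windows and intervals were computed with Python 3.11.15, numpy 2.4.6, pandas 2.3.3 and scipy 1.17.1, and checked on simulated peaks. No significance test was run, since 1 list stands for the replicates.

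Regions were named by a rule: the 10 highest and 3 lowest scores, the 5 widest and 3 narrowest peaks, the leading chains, the 5 longest distances and the 3 densest and 3 sparsest windows. Other peaks were named after their values were seen. The members, limits and rule were chosen with earlier results of these data known. The 1 gene table used is of Release 6, and served for the names and chromosome of the 2 disco genes. Gene positions and motifs were therefore not analysed. Alternatives were merging gaps under 1 kb, the top 50% and 25% by score, other neighbour limits and windows, and leaving out single arms.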

Additional observations from a re-analysis of the deposited data

How the results depend on the processing

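Of 48 alternative values, 30 stayed inside the interval of the main value (within 1.5 times for a count). The X share of all peaks, the share scoring above 100, the median scores, the spacing and the peaks per window did so throughout, except that X peaks held 12.2% of covered bases. A stricter score moved values by construction. The top 50% of the list held 121 X peaks and the top 25% held 62. Median widths were then 1559 and 1718.5 bp on the X and 1821 and 2102 bp on the autosomes. Without chained peaks the autosomal median was 1511 bp. Shares with a neighbour were 23.4% on the X and 21.7% on the autosomes at 5 kb, 84.0% and 84.7% at 50 kb, and 22.3% and 22.7% in the top 50%. After merging they were 34.1% on the X and 34.6% on the autosomes. Peaks wider than 3000 bp were 9.09% of the X and 15.2% of the autosomes in the top 50%. After merging they were 6.47% of the X and 15.0% of the autosomes. In each of these settings run on both, the X had the lower median width. The intervals overlapped without chained peaks and in the top 50% (1393 to 1753 bp on the X, 1735 to 1914 bp on the autosomes), where the shares over 3000 bp did so too (5.15 to 15.5% and 12.8 to 17.9%). The comparisons without chained peaks, without the leading peak, without the densest window and of peaks over 3000 bp were chosen after seeing the data. Gene positions and motifs, which need Release 5 sequence and annotation, were not run. No paired analysis was possible because the ChIP replicates share 1 list. No read depth is known, so peaks too weak to be called cannot be counted.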

Other observations

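In 31 of the 40 X chains of 2 or more peaks (77.5%) the highest-scoring peak was also the widest of its chain. In the 15 chains of 3 or more this held for 11 (73.3%). It did not hold at X:13546818-13560098, X:15613292-15623408, X:18544761-18556245 and X:19410077-19423669. Of the 40 chains 25 were pairs, with only 2 peaks to choose from. The same count was not made on the autosomal arms, so nothing particular to the X can be read from it. Score and width come from the same calls, so these counts describe the list.

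Very short gaps between X peaks numbered 12 under 1 kb, which is 4.94% of the 243 distances on the X, beside 4.10% on 2L and 6.37% on 2R at the ends of the autosomal range. The shortest was 45 bp, between peaks scoring 67.13 and 146.7 that meet at X:7935729-7935773. The next was 98 bp, inside the chain of 4 nearest to the leading peak, between scores of 114.32 and 50.87. A gap of 127 bp at X:19595870-19595996 separated peaks of 96.07 and 96.89, the closest pair of scores among the 3 shortest gaps.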
